A study of Neurospora crassa with 19 samples.

Results

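Histone H3 is methylated at several lysines by separate enzymes, and 8 genes of that machinery are described here in Neurospora crassa, a filamentous fungus. They were taken by locus number from the 9730 genes counted: the 4 genes of Polycomb repressive complex 2 (PRC2), which are set-7 (NCU07496), eed (NCU05300), suz12 (NCU05460) and npf (NCU06679), and 4 genes of other methyltransferases, which are set-1 (NCU01206), set-2 (NCU00269), ash-1 (NCU01932) and dot1 (NCU06266). The choice used no measured value, but it was made with earlier results of these data known. The values came from poly-A RNA of strain N5801, whose dim-1 gene (NCU06484, a chromatin remodeler) is labelled as completely deleted, in 2 libraries. The cultures had grown for 16 h at 32 °C with shaking in Vogel's minimal medium with 1.5% sucrose, and the labelled material is germinated conidia, the young growth that comes out of asexual spores. The other 17 of the 19 samples, which cover nucleosome mapping, bisulfite sequencing, chromatin immunoprecipitation and whole genomes, were not analysed here, nor was a wild-type RNA library. A difference from wild type therefore cannot be given, and the comparisons are between genes and between the 2 replicates of a single strain.

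PRC2 puts methyl groups on H3K27, a mark of silent genes known as facultative heterochromatin, and Neurospora has a compact version of the complex known from animals and plants. SET-7 is the catalytic subunit, SUZ12 holds the core together, EED binds the methylated histone tail, and NPF is a histone-binding protein that also belongs to the histone chaperone CAF-1. The remaining enzymes mark other residues: SET-1 methylates H3K4 at active genes, SET-2 and ASH-1 methylate H3K36 in different sets of genes, and DOT1 methylates H3K79 with a catalytic domain unlike that of the SET proteins.

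Gene counts summed to 17364963 in replicate 1 and to 13632746 in replicate 2, and 7775 genes reached at least 10 counts in both libraries, called detected here. A count of 0 allows up to 3 counts, or 0.173 counts-per-million (CPM) in replicate 1 and 0.220 in replicate 2. Intervals and floors cover counting error only. Nothing in the labels says whether the 2 RNA samples came from separate cultures, so the spread between them may be technical. The dim-1 gene itself had 258 and 171 counts, so these are named as libraries labelled dim-1 deletion. A single count per gene cannot tell whether those reads fell in a part left in place. Levels are given as CPM or, to compare genes, as CPM per kilobase of gene span, the distance from gene start to gene end in the RefSeq table of assembly NC12, which includes introns and untranslated ends. Among 6 conidiation genes, con-8 was highest at 62.5 ± 32.1 CPM per kilobase (SD, n = 2) and acon-3 lowest at 0.427 ± 0.121. The libraries stood apart in some of these spore-stage genes, in both directions. Higher in replicate 1 were con-10 (NCU07325) by 4.23-fold and con-8 by 2.06-fold, each called by the exact binomial test described with the replicates. With the spread over all genes allowed for, by edgeR's exact test, the adjusted p was 0.0205 for con-10 and 0.811 for con-8. Not called were acon-3 (1.41-fold) and fl (1.17-fold), also higher in replicate 1, and con-6 (1.76-fold) and eas (1.47-fold), higher in replicate 2. The part of these differences in the results for the 8 genes was not tested. Among 3 genes of sexual development, fmf-1 had 0 counts in both libraries, sad-1 had 3 and 2, and fsd-1 had 466 and 276.

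All 8 histone H3 methylation genes were detected, most of them below the middle of the detected genes. Their median was 4.10 CPM per kilobase, against 13.0 over detected genes and 8.27 over all genes, and 7 of the 8 lay below the median of detected genes. Part of this gap is length, since the 8 genes have longer spans. By CPM without length their median was 16.7, against 34.2 over detected genes and 20.4 over all genes, and 6 of the 8 lay below the median of detected genes. Within PRC2 the subunit genes spread widely, from 0.769 ± 0.150 CPM per kilobase for eed to 24.5 ± 1.00 for npf (SD, n = 2). The other methyltransferase genes lay between those, from 2.63 ± 0.229 for set-2 to 8.23 ± 0.490 for ash-1.

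The catalytic subunit gene set-7 had 284 counts in replicate 1, or 16.4 CPM (exact Poisson 95% interval 14.5 to 18.4). It had 208 counts in replicate 2, or 15.3 CPM (13.3 to 17.5). The libraries overlapped within counting error, and per kilobase set-7 stood at percentile 11.8 of detected genes in replicate 1 and 13.5 in replicate 2. By CPM without length its percentiles were 31.5 and 32.0.

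The gene for the reader subunit, eed, had 42 counts in replicate 1, or 2.42 CPM (1.74 to 3.27), and 25 in replicate 2, or 1.83 CPM (1.19 to 2.71). Per kilobase it was the lowest of the 8 in both libraries, at percentiles 3.29 and 2.66 of detected genes. Both values lay well above the floor of 3 counts, but the wide intervals show how few reads carried them.

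The gene for the scaffold subunit, suz12, had 141 counts in replicate 1, or 8.12 CPM (6.83 to 9.58). In replicate 2 it had 143 counts in a smaller library, or 10.5 CPM (8.84 to 12.4). It was the member whose level was most clearly higher in replicate 2, and the 2 intervals still overlapped. Per kilobase its percentile was 10.7 in replicate 1 and 16.8 in replicate 2.

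The gene npf, called cac-3 in the RefSeq gene table, had 1107 counts in replicate 1, or 63.7 CPM (60.0 to 67.6), and 921 in replicate 2, or 67.6 CPM (63.3 to 72.1). Per kilobase it was the highest of the 8 in both libraries, at percentiles 66.5 and 68.5, and the only PRC2 gene above the median of detected genes.

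**Figure D1:**
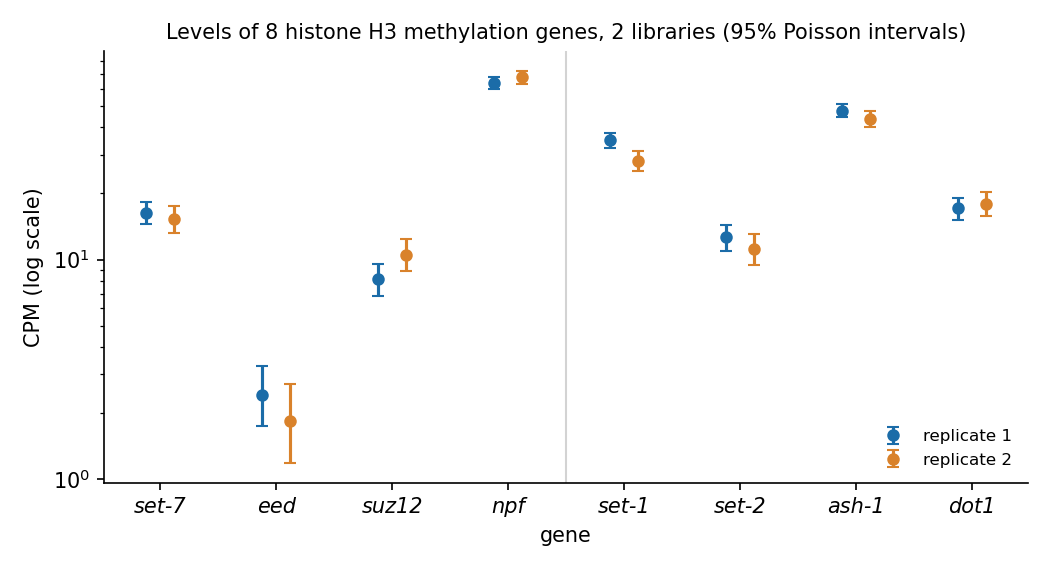
Level of each of the 8 genes in CPM (log axis) in replicate 1 and replicate 2, with exact Poisson 95% intervals as bars and the 4 PRC2 genes left of the vertical line. The bars are widest for eed (42 and 25 counts), and only for set-1 do those of the 2 libraries fail to overlap, while heights of different genes also reflect gene length.

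Outside PRC2, the H3K4 methyltransferase gene set-1 had 606 and 383 counts, or 34.9 CPM (32.2 to 37.8) in replicate 1 and 28.1 CPM (25.4 to 31.1) in replicate 2. Its level was higher in replicate 1, and it was the only member whose 2 intervals did not overlap. The H3K36 methyltransferase gene set-2, which in yeast acts with elongating RNA polymerase, had 219 and 152 counts, or 12.6 CPM (11.0 to 14.4) and 11.1 CPM (9.45 to 13.1).

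The other H3K36 methyltransferase gene, ash-1, which the table calls set-3, had 826 and 596 counts, or 47.6 CPM (44.4 to 50.9) and 43.7 CPM (40.3 to 47.4). For both H3K36 genes the intervals of the 2 libraries overlapped. The H3K79 methyltransferase gene dot1 had 297 and 244 counts, or 17.1 CPM (15.2 to 19.2) and 17.9 CPM (15.7 to 20.3). For dot1 too the 2 intervals overlapped.

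The spans behind the levels per kilobase ran from 2685 bases for npf to 6740 for set-7, with a median of 4092 over the 8 genes against 2372 over detected genes. In order from the lowest, eed stood alone, since no other member's range over the 2 libraries reached it. The next were set-7 at 2.35 ± 0.115, suz12 at 2.53 ± 0.456 and then set-2, in CPM per kilobase (SD, n = 2). The range of suz12 overlapped those of set-7 and set-2, so its place among them is not settled beyond the spread between libraries. A step above them lay set-1 at 5.57 ± 0.851 and dot1 at 6.26 ± 0.201, which also overlapped. By counts alone set-1 averaged 1.81 times dot1, against 0.892 times per kilobase. Above those, ash-1 and npf stood apart from their neighbours.

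The place of dot1 in that order is uncertain. Its span shares 1299 of 2794 bases with the neighbouring gene NCU06267, which had 209 and 166 counts, and reads from the shared part may be given to either gene or to neither, depending on a strand setting that the sources used here do not give. If no counted read came from the shared part, all reads of dot1 would fall on its other 1495 bases. Under that assumption, chosen after the data were seen, the level would be about 11.7 CPM per kilobase, so dot1 may lie below or above ash-1. In the table no gene span overlapped any of the other 7 genes.

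Within PRC2 the gap between npf and the other subunit genes held in each library. Per kilobase, npf was 27.2 times eed in replicate 1 (exact binomial 95% interval 20.0 to 37.9) and 38.0 times in replicate 2 (25.5 to 59.0). It was 9.78 times set-7 (8.58 to 11.2) and 11.1 times (9.55 to 13.0), and 10.7 times suz12 (9.004 to 12.9) and 8.81 times (7.38 to 10.6). A ratio of 2 genes within a library does not depend on how the library is scaled, but it does depend on the lengths. By counts alone npf averaged 4.16 times set-7 and 7.15 times suz12.

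The catalytic and scaffold genes also stood above eed. Per kilobase, set-7 was 2.77 times eed in replicate 1 (2.00 to 3.93) and 3.41 times in replicate 2 (2.25 to 5.40), while suz12 was 2.53 times eed (1.78 to 3.66) and 4.31 times (2.80 to 6.88). The factor for set-7 rests on its long span: by counts alone it averaged 7.54 over the 2 libraries, against 3.09 ± 0.452 per kilobase (SD, n = 2). Between suz12 and set-7 the per-kilobase ratio was 0.911 in replicate 1 (0.739 to 1.12) and 1.26 in replicate 2 (1.01 to 1.57), so the first interval included equality. By counts alone suz12 averaged 0.592 times set-7, and the 2 genes had no settled order.

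The level of npf was nearer to that of the other CAF-1 genes. The CAF-1 complex places new H3 and H4 on replicated DNA, and the table names its genes cac-1 (NCU04198), cac-2 (NCU08357) and cac-3, which is npf. In CPM per kilobase, cac-1 had 9.65 ± 0.842 and cac-2 had 18.7 ± 2.77 (SD, n = 2). Per kilobase npf was 2.62 times cac-1 in replicate 1 (2.36 to 2.91) and 2.46 times in replicate 2 (2.19 to 2.75). It was 1.15 times cac-2 (1.06 to 1.25) and 1.50 times (1.37 to 1.65), and those last intervals did not overlap between libraries. By counts alone npf averaged 2.03 times cac-1 and 0.983 times cac-2. The factors between npf and the 3 other PRC2 genes were larger than these in both libraries, per kilobase and by counts.

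Among the 9 genes that the table names set with a number, the H3K27 and H3K36 enzymes set-7 and set-2 were the lowest per kilobase. The ranges of set-7 (2.26 to 2.43 CPM per kilobase) and set-2 (2.47 to 2.80) did not overlap, but per kilobase set-2 was only 1.15 times set-7 in replicate 1 (0.961 to 1.38) and 1.09 times in replicate 2 (0.880 to 1.35), and both intervals include equality. Being the very lowest rests on length: by CPM without length, set-9 (7.98) and set-6 (9.95), with short spans of 1830 and 2006 bases, were lowest of the 9. Next came set-2 (11.9) and set-7 (15.8), still below the remaining set genes, of which set-8 was lowest at 29.5. The span of set-2, 4512 bases, is below the median of 5021 for the 9, while that of set-7 is the longest. The highest were set-5 (NCU06119) at 41.2 ± 5.73 and set-4 (NCU04389) at 24.2 ± 6.24 CPM per kilobase. Between these ends, set-9 (NCU08733) had 4.36 ± 0.728, set-6 (NCU09495) 4.96 ± 2.16 and set-8 (NCU01973) 5.88 ± 0.0742, with set-1 among them and ash-1 above (SD, n = 2). Neighbours from set-9 to set-8 in that order overlapped. The order at the top rests on length too: by CPM without length set-4 was highest of the 9 at 122, and set-5 (44.1) lay near ash-1 (45.6).

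The gap between the 2 genes for H3K36 was alike in both libraries. Per kilobase, ash-1 was 3.07 times set-2 in replicate 1 (2.64 to 3.58) and 3.19 times in replicate 2 (2.66 to 3.84). The ratio of ash-1 to set-7 was 3.53 (3.08 to 4.06) and 3.48 (2.97 to 4.10). The H3K9 methyltransferase gene dim-5 (NCU04402), lowest of 7 genes of H3K9 methylation and heterochromatin, was per kilobase 1.79 times set-7 in replicate 1 (1.44 to 2.21) and 1.13 times in replicate 2 (0.835 to 1.52). The direction turns without length, since by counts dim-5 averaged 0.365 times set-7.

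**Figure D2:**
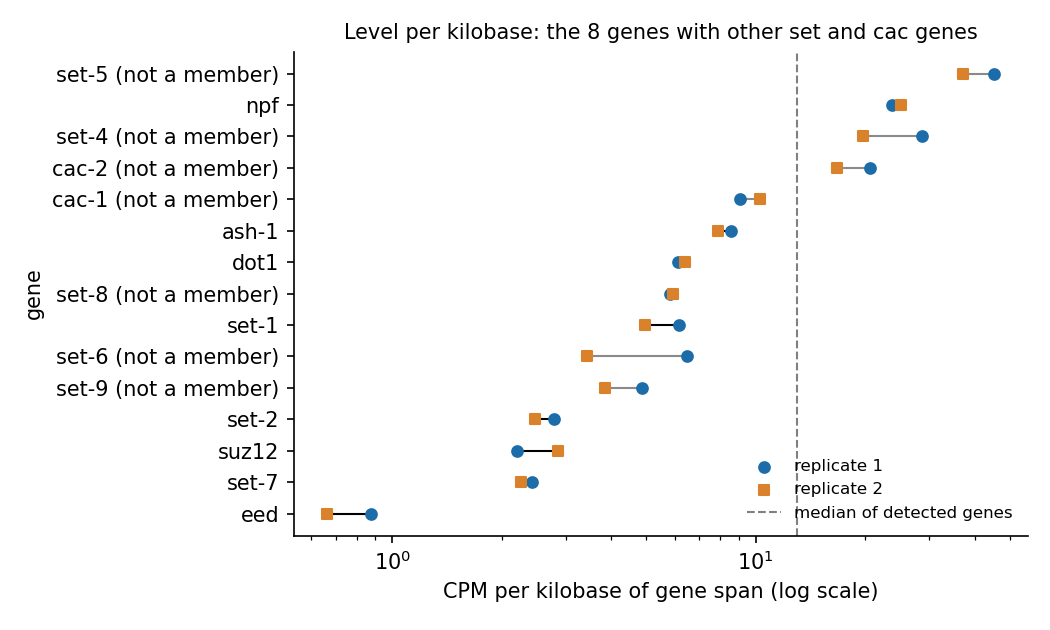
CPM per kilobase of gene span (log axis) in each library for the 8 genes (black lines joining the 2 libraries) and for the other genes named set or cac with a number (grey lines), with a dashed line at the median of detected genes. The gene eed lies alone at the low end, set-7, suz12 and set-2 lie together, and npf lies to the right of the dashed line with cac-2, set-4 and set-5.

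Partners of Polycomb repression were read beside the complex, as CPM per kilobase. The gene for the nucleosome remodeler ISWI (NCU03875) was highest of 3, at 18.2 ± 0.190, and its partner acf1 (NCU00164) was lowest, at 5.86 ± 0.748 (SD, n = 2). The gene for EPR-1 (NCU07505), which reads methylated H3K27, lay between them at 8.27 ± 1.75. In each library all 3 were above set-7, suz12 and eed. By CPM without length the gene for EPR-1 was lowest of the 3, at 26.1 against 30.2 for acf1.

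The 7 genes of H3K9 methylation and heterochromatin had a median of 6.99 CPM per kilobase, from 3.45 ± 1.25 for dim-5 to 20.8 ± 2.14 for hpo (NCU04017), the gene for heterochromatin protein HP1. Of histone demethylase symbols only dmm-1 (NCU01554), a JmjC-domain gene, matched, at 4.96 ± 0.418 CPM per kilobase. Of H2B ubiquitination and Paf1 symbols only mus-8 (NCU09731), a relative of yeast RAD6, matched, at 115 ± 33.1. Among 8 histone genes, hH3 (NCU01635), which encodes the substrate of these enzymes, was highest at 1610 ± 162 CPM per kilobase, and the H3 variant gene hH3v (NCU00145) was lowest at 18.0 ± 1.92.

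Between the 2 libraries the 8 genes differed by less than 2-fold each. None was called at an adjusted p under 0.05 together with at least a 2-fold difference, by a two-sided exact binomial test of the reads with Benjamini-Hochberg adjustment over 7898 genes. The same rule called 6.15% of all tested genes, so a count of 0 among 8 genes is near that background. A 2-fold difference alone was reached by 0 of the 8 and by 6.53% of tested genes. By adjusted p alone, 2 of the 8 passed, against 57.3% of tested genes, and by unadjusted p under 0.05, 3 of the 8 against 60.8%. The test compares these 2 libraries and not conditions. When the spread seen over all genes was allowed for, with edgeR's exact test, 0 of the 8 were called, against 0.646% of tested genes. By that test's unadjusted p under 0.05, 0 of the 8 passed, against 5.44% of tested genes. The spread was estimated from these same 2 libraries taken as a single group, so it takes in the difference under test. Over the 8 genes the median absolute log2 ratio was 0.13, beside 0.29 over detected genes.

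The 2 genes past the adjusted p differed in opposite directions, with 1 higher in replicate 2 (29.1% of tested genes) and 1 higher in replicate 1 (28.2%). The log2 ratio of replicate 2 over replicate 1 was 0.43 for suz12 (95% interval 0.08 to 0.77, exact binomial adjusted p = 0.0259), with the higher level in replicate 2. For set-1 it was −0.26 (−0.45 to −0.07, exact binomial adjusted p = 0.0125), with the higher level in replicate 1. The ratio for npf was 0.14 (0.01 to 0.27) with an exact binomial adjusted p of 0.0543.

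For the 5 others the interval of the log2 ratio included 0. It was −0.04 for set-7 (−0.31 to 0.22), −0.07 for ash-1 (−0.22 to 0.09), −0.12 for set-2 (−0.43 to 0.18) and 0.12 for dot1 (−0.13 to 0.37). For eed it was −0.33, and the interval from −1.12 to 0.40 leaves room for a 2-fold difference that its 42 and 25 counts could not show. Both directions occurred within PRC2, with suz12 and npf higher in replicate 2 and set-7 and eed higher in replicate 1.

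**Figure D3:**
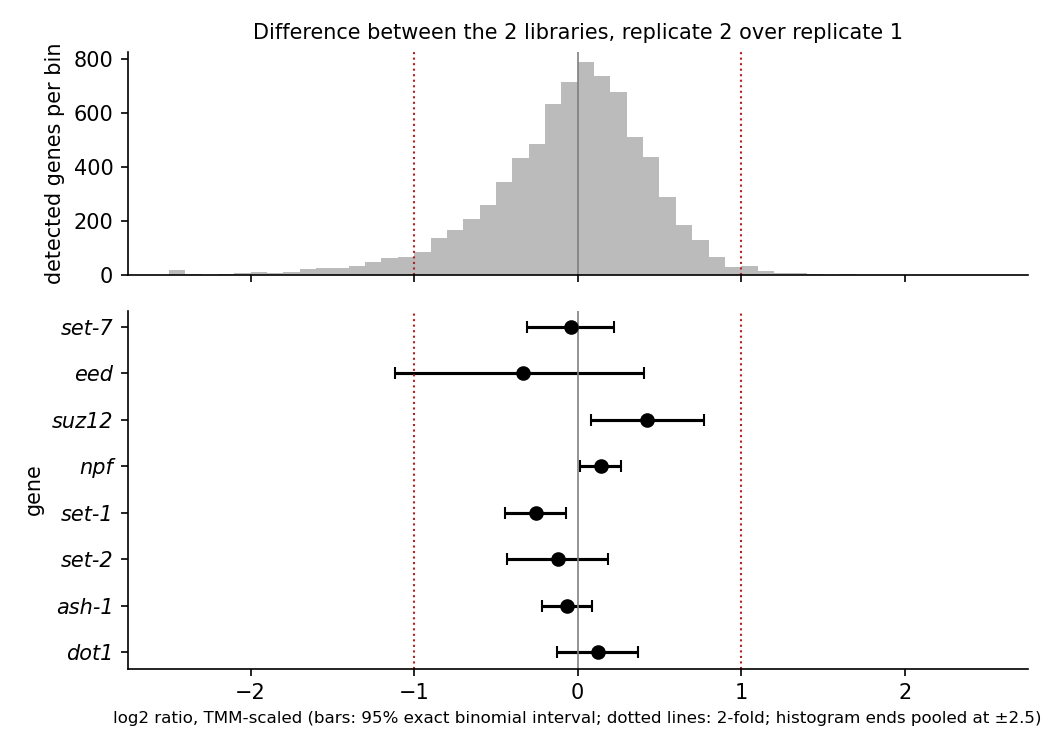
Upper panel, histogram of the TMM-scaled log2 ratio of replicate 2 over replicate 1 for detected genes, with values beyond ±2.5 pooled in the end bins; lower panel, the same ratio for each of the 8 genes with its exact binomial 95% interval, and dotted lines at a 2-fold difference. All 8 points lie within the dotted lines, from −0.33 for eed to 0.43 for suz12, and only the interval of eed crosses one of them.

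Other named genes with nearly the same level in both libraries were found by the distance of log2(CPM + 0.5) over the 2 libraries. With only 2 libraries of a single group such likeness describes a level and no pattern of change. Nearest to eed was rid-1 (NCU02034) with 45 and 27 counts (distance 0.121), and nearest to set-7 was tah-2 (NCU02214) with 287 and 207 (0.0162). Nearest to suz12 was gh47-3 (NCU01059) with 146 and 153 counts (0.105), and nearest to npf was rpa-1 (NCU03606) with 1094 and 887 (0.0565). For set-1 it was spa2 (NCU03115; 0.0263), for set-2 upr-1 (NCU01951; 0.0898), for ash-1 ppm-1 (NCU00087; 0.00885) and for dot1 ro-2 (NCU00257; 0.00947).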

How the data were processed

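For each of 2 poly-A RNA libraries, made with a stranded mRNA kit per the labels' protocols, the authors deposited a raw read count for every gene locus. The submitters' processing notes name HTSeq, TopHat, Bowtie, Bowtie2, SAMtools and DESeq for the series. Which tool did what, and the build, annotation and strand setting, is not given in the sources used here. The 5 rows without a gene were left out (reads in no gene 6.72% and 6.64%, in several places 3.41% and 2.48%, ambiguous 0.0728% and 0.0771%).

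The 8 genes, the lists and the tests were chosen with earlier results of these data known. All 8 loci matched the RefSeq gene table of assembly NC12, 5 with a symbol. Names of eed, suz12 and dot1 are not from that table. No protein lengths were used, so levels per kilobase rest on gene span and not, as intended, on coding length. CPM divides by the sum over genes, and each mean ± SD has n = 2. Between replicates, genes with at least 20 counts in total were tested by the exact binomial test against the TMM-scaled library share (edgeR 4.0.16, R 4.3.3), and log2 ratios used 0.5 added counts. A quasi-likelihood test could not be fitted to 2 libraries of a single group. The counts of the 2 libraries were not identical (chi-square over genes 97.8 per degree of freedom), which does not show separate cultures; they were kept as the labels give them, as 2 samples. Steps in Python 3.11.15 with scipy 1.17.1 were tested on simulated data. The simulated counts had Poisson error only, so that check does not cover the larger spread between these libraries. Genes named are the 8, dim-1, all set and cac symbols, the highest and lowest of each other list per kilobase, nearest genes and overlapping genes. The genes epr-1, sad-1, con-10, con-6, eas and fl fall outside that rule and were named after their values were seen. Alternatives were TMM and DESeq2 1.42.0 scaling, library totals, no count filter, other call rules, 2 added counts, no length correction and each replicate left out.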

Additional observations from a re-analysis of the deposited data

How the results depend on the processing

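Of 61 alternatives that could change a result, 49 kept it within the replicate spread or on its side of the threshold. Most of the 49 rescaled the libraries or added counts to the log2 ratios. With TMM factors of 1.02 and 0.981, rescaling could move a value only little, so this tally says little about robustness. The 8 that moved and 4 that reversed came from leaving out length, the dot1 overlap or adjusted p alone. Outside the 61, 41 alternatives leave out a replicate or undetected members and could not move a value by more than the spread. The count of members called between replicates was 0 under library totals, DESeq2 size factors, no filter on low counts, edgeR's exact test and a 2-fold difference alone. It became 2 by adjusted p alone. The largest log2 ratio in size was 0.43, for suz12, so settings that ask for at least 2-fold could hardly give a count other than 0. No log2 ratio of the 8 changed sign. Gene length mattered most. Without length correction set-7 over eed was 7.54 in place of 3.09. In comparisons without length added after seeing the data, direction turned for suz12 over set-7 (0.592), npf over cac-2 (0.983), set-2 over set-7 (0.751) and dim-5 over set-7 (0.365). The mean ratio of set-1 to dot1, not among the alternatives counted above, also turned, from 0.892 per kilobase to 1.81 by counts. If all reads of dot1 lay outside its overlap with NCU06267, its level would be about 11.7 CPM per kilobase. Leaving out a replicate moved the median level between 16.6 and 16.7 CPM. It moved the ratio per kilobase to eed between 27.2 and 38.0 for npf, 2.53 and 4.31 for suz12 and 2.77 and 3.41 for set-7. No paired analysis was possible because only 1 group has libraries here. Depth limits eed most, at 42 and 25 counts. Coding length in place of gene span was not run.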
